A study of Rattus norvegicus with 12 samples.

Results

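The genes examined were 10 mast cell genes of the rat lung, the proteases Mcpt1, Mcpt2, Cma1, Cpa3, Tpsab1 and Tpsb2, the receptor genes Ms4a2, Fcer1a and Kit, and Hdc. They were chosen from earlier results of these data, because the Mcpt1 signal was lower in the PPG group than in the CS + LPS group, and the other 9 were added as known mast cell genes. Of the 10 genes, 9 had a probe on the array, by 10 probes among the 30367 probes for rat transcripts (14919 gene symbols), and all 9 were detected. A probe counted as detected where every array of some group (3 arrays) had it well above background, as the scanner software flags it. Mcpt2 had no probe under its own name. The probe named Mcpt1 belongs to a gene for which the reference table lists both rat mast cell protease 1 and 2 as older names, so its signal cannot be assigned to one or the other.

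Mast cells are long-lived tissue cells that lie along airways, vessels and pleura and store proteases, proteoglycan and histamine in granules. Chymases, tryptases and carboxypeptidase A3 make up most of the granule protein, and connective tissue and mucosal mast cells carry different sets of them. The high-affinity IgE receptor, built of an alpha, a beta and a gamma chain, releases the granules when antigen crosslinks bound IgE, while KIT, the receptor for stem cell factor, keeps mast cells alive.

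The study induced a model of chronic obstructive pulmonary disease (COPD) in male Sprague-Dawley rats, 8 to 12 weeks old per the labels, by cigarette smoke (CS) and lipopolysaccharide (LPS) instilled into the trachea. The control group had neither, the CS + LPS group had both, the CS + LPS + NaHS group also received sodium hydrosulfide, a hydrogen sulfide donor, and the CS + LPS + PPG group propargylglycine, an inhibitor of the hydrogen sulfide-producing enzyme CTH. RNA of whole left upper lung lobe was hybridised to 12 single-colour arrays, 3 per group, so each signal is an average over all cells of the piece of lung. NaHS and PPG were each tested only on top of CS + LPS, and no drug was given to control rats.

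All 7 lung markers fixed for a check of the tissue (Sftpc, Sftpb, Sftpa1, Ager, Scgb1a1, Cldn18 and Hopx) were detected. The 75th percentile of the processed signal over probes ranged from 856 to 2222. Control replicate 3 had the lowest and stood apart, with correlations to the other arrays of 0.936 to 0.957, against 0.975 to 0.992 among all other pairs. The 3 CS + LPS arrays lay with Control replicate 3 on 1 slide and the other 8 arrays on another. CS + LPS replicate 1 held the highest value of the 12 arrays for 6 of the 9 genes (Mcpt1, Cma1, Cpa3, Tpsb2, Ms4a2 and Fcer1a), and Control replicate 3 the lowest for 3 of them (Mcpt1, Cpa3 and Fcer1a). Results that rest on either array are therefore given with and without it.

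The sequences before the start sites of Mcpt1, Cma1, Cpa3 and Fcer1a are shown because these 4 genes carry the results that follow. Each is the 250 bases upstream of the gene's start in RefSeq on build GRCr8, read 5′ to 3′ on the gene's strand: chr15:33841356-33841605 (plus strand), chr15:33390134-33390383 (minus), chr2:104673238-104673487 (minus) and chr13:88224680-88224929 (minus). Capitals mark the letters GATAA, the core of sites bound by GATA factors such as GATA2, and CATGTG, an E-box of the kind bound by MITF, both searched on both strands, where TTATC and CACATG are the matches on the other strand. None of the matches overlaps another.
Mcpt1: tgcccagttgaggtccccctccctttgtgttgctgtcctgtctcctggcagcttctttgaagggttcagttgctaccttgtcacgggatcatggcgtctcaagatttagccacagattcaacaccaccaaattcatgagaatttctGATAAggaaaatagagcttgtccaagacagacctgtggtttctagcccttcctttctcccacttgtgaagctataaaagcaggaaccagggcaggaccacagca
Cma1: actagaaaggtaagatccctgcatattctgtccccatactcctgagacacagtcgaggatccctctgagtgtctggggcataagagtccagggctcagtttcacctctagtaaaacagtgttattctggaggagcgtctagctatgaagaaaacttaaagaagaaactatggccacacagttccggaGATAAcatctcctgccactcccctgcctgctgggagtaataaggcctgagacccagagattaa
Cpa3: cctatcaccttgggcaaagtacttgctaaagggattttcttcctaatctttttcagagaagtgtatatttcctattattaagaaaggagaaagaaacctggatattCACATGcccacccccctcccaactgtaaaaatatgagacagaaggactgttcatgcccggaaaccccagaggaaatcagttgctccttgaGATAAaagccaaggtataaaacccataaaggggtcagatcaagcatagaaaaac
Fcer1a: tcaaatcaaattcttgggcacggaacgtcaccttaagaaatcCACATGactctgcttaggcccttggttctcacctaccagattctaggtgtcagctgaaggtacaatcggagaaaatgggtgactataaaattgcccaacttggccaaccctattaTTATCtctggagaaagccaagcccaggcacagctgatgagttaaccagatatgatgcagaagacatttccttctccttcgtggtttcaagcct

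GATAA matched once in each of the 4 windows, at position -104 from the start in Mcpt1, -63 in Cma1, -54 in Cpa3 and -93 in Fcer1a. CATGTG matched in Cpa3 (-144) and Fcer1a (-208). Of the 8 members with a promoter in the table, 5 held GATAA (the 4 shown and Tpsab1) and 3 held CATGTG (Cpa3, Fcer1a and Tpsb2). Over all 33469 promoters of this length, 23.5% held GATAA and 12.1% held CATGTG. These matches describe the letters in the window and show no binding.

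Mcpt1, a chymase-like serine protease, varied more between arrays of the CS + LPS group than between group means (probe A_44_P238556). Its log2 signal, scaled between arrays on the 75th percentile, was 10.03, 9.24 and 8.36 in control replicates 1 to 3. The CS + LPS arrays read 12.86, 10.37 and 10.02, the NaHS arrays 10.85, 10.40 and 9.42, and the PPG arrays 9.07, 8.85 and 9.29. The CS + LPS array at 12.86 was the highest of the 12, and the 3 PPG values lay close together and below all CS + LPS and all NaHS values. From highest to lowest the group means were 11.08 ± 1.55 with CS + LPS, 10.22 ± 0.73 with NaHS, 9.21 ± 0.83 in controls and 9.07 ± 0.22 with PPG (SD, n = 3 each), and each group overlapped its neighbours in this order.

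Cma1, the alpha-chymase of connective tissue mast cells, followed another pattern (probe A_44_P1029706). Its log2 signal was 8.16, 8.35 and 8.62 in controls and 9.70, 9.49 and 9.04 with CS + LPS. It was 8.51, 8.67 and 8.72 with NaHS and 9.30, 9.66 and 9.44 with PPG. All 6 arrays of the CS + LPS and PPG groups lay above all 6 arrays of the control and NaHS groups, with the PPG and CS + LPS groups overlapping each other and the NaHS and control groups overlapping each other. Its SD within a group was 0.11 to 0.33, against 0.22 to 1.55 for Mcpt1.

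Cpa3, carboxypeptidase A3 of the granule, had log2 signals of 8.38, 9.04 and 6.41 in controls, 11.22, 9.10 and 8.51 with CS + LPS, 9.48, 9.06 and 8.74 with NaHS and 8.04, 8.51 and 8.91 with PPG. As for Mcpt1, 1 CS + LPS array was the highest and Control replicate 3 the lowest, and the groups overlapped. The tryptases differed from each other. Tpsab1 was lowest on CS + LPS replicate 3, at 5.58, with 8.22 and 7.80 on the other 2, and was 7.95, 9.19 and 8.88 in controls, 7.19, 7.67 and 7.84 with NaHS and 7.98, 7.83 and 8.84 with PPG. Tpsb2 was 8.36, 9.03 and 7.50 in controls, 9.48, 8.18 and 6.90 with CS + LPS, 8.55, 8.66 and 7.75 with NaHS and 7.26, 7.64 and 7.61 with PPG. The 3 PPG values of Tpsb2 lay below the 3 NaHS values, and all other groups overlapped.

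Fcer1a, the IgE-binding alpha chain, was read by 2 probes. On the brighter one (A_64_P052825, 1 spot per array) the log2 signals were 7.66, 7.48 and 6.69 in controls, 10.01, 8.06 and 7.54 with CS + LPS, 8.24, 7.86 and 7.27 with NaHS and 7.31, 7.06 and 7.44 with PPG. Again CS + LPS replicate 1 was highest, and the PPG values lay below the CS + LPS values. The other probe (A_42_P654682, 10 spots per array) was not well above background on Control replicate 3, and its group means of 6.28 ± 0.78, 7.92 ± 1.29, 7.30 ± 0.59 and 6.70 ± 0.23 (SD, n = 3; control, CS + LPS, NaHS, PPG) also had CS + LPS highest.

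Ms4a2, the receptor's beta chain, ranged from 5.58 to 8.08 within the CS + LPS group alone, and the values of the other 9 arrays all lay inside that range, with means of 6.86 ± 0.47 in controls, 6.48 ± 0.38 with NaHS and 6.16 ± 0.23 with PPG (SD, n = 3 each). Kit spanned only 10.09 to 10.80 over the 12 arrays, with group means of 10.57 ± 0.26 in controls, 10.46 ± 0.20 with CS + LPS, 10.63 ± 0.23 with NaHS and 10.41 ± 0.28 with PPG (SD, n = 3 each); KIT is also made by other cells of the lung. Hdc, which makes histamine and is also active in basophils and neutrophils, was 10.43, 10.38 and 10.37 with NaHS, below all 9 other arrays. It was 10.61, 10.59 and 11.79 in controls, 11.06, 10.65 and 10.77 with CS + LPS and 10.85, 10.69 and 10.83 with PPG.

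**Figure D1:**
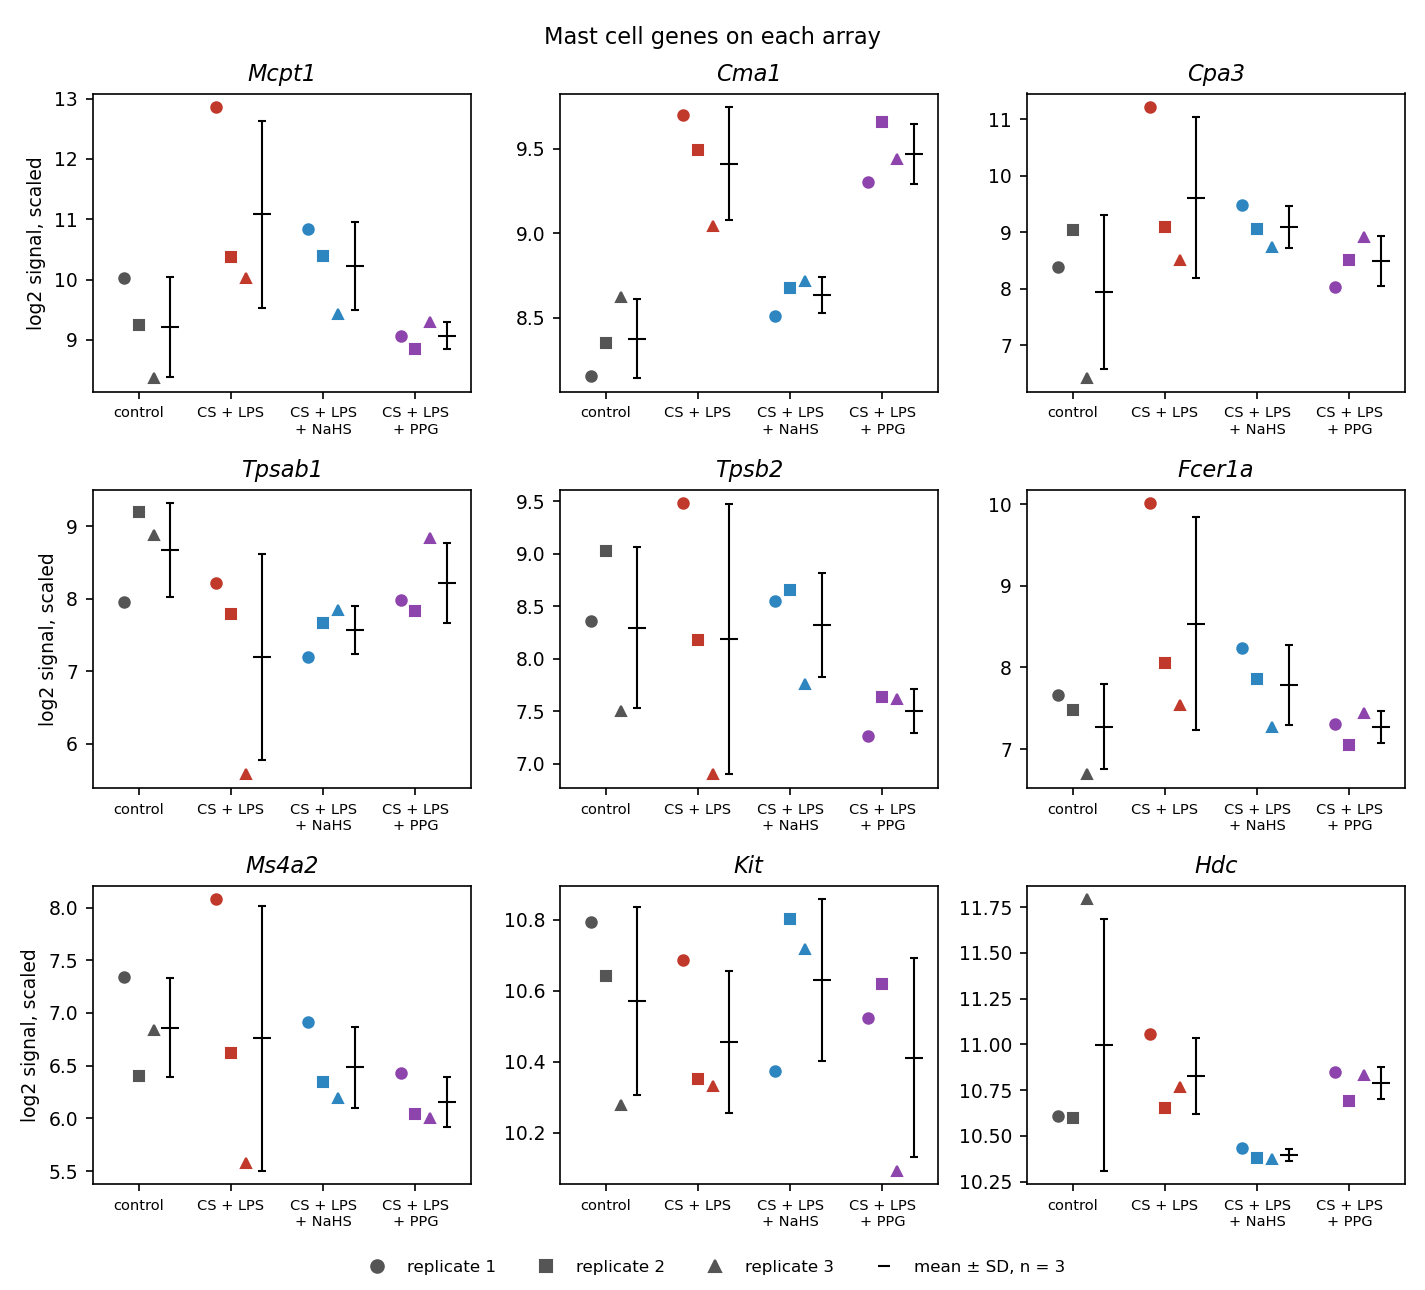
Scaled log2 signal (y axis, own range for each gene) of the 9 measured mast cell genes on the 12 arrays, by group (x axis, n = 3), with 1 marker shape per replicate number and the group mean ± SD in black. For Mcpt1, Cpa3, Fcer1a, Tpsb2 and Ms4a2 the highest point is CS + LPS replicate 1, whereas for Cma1 all CS + LPS and PPG points lie above all control and NaHS points.

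The first comparison asked what smoke and LPS did to these genes. A call used the study's 2 thresholds, a 2-fold difference or more and p under 0.05 without adjustment, here from limma. By them 4 of the 8 detected genes other than Mcpt1 were called, while 4.56% of the 21239 detected probes were. Cma1, Cpa3 and Fcer1a rose and Tpsab1 fell. Mcpt1 also passed, but these arrays chose it, so it is not read against that share. Fcer1a and Cpa3 followed Mcpt1 closely over the 12 arrays (Pearson r = 0.979 and 0.873). The count of 4 is therefore not independent of the choice of Mcpt1. Cma1 was 1.04 ± 0.19 above control on the log2 scale (SE, fold of 2.05, adjusted p = 0.0295), Cpa3 1.67 ± 0.73 (adjusted p = 0.185), Fcer1a 1.26 ± 0.53 (adjusted p = 0.176) and Tpsab1 -1.48 ± 0.60 (adjusted p = 0.163). Mcpt1 was 1.87 ± 0.68 above control, given without a p for the same reason. The remaining 4 genes were not called. Only Cma1 passed an adjusted p of 0.05, as 2.02% of probes did, and with 1 array left out its adjusted p was 0.0248 to 0.0685. The median difference over the 9 genes was -0.098, against -0.039 over all detected probes. In RNA of whole lung, a change in the number of mast cells and a change in RNA per mast cell cannot be told apart.

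Each of the 5 calls was lost when single arrays were left out. Without CS + LPS replicate 1, Mcpt1 was 0.98 above control, Cpa3 0.86, Fcer1a 0.52 and Cma1 0.89, and Tpsab1, at -1.99, was the only member called. Without Control replicate 3, Mcpt1 was 1.44, Cpa3 0.90, Fcer1a 0.97 and Tpsab1 -1.38, and Cma1, at 1.16, was the only member called. Cma1 also fell short of a 2-fold difference without Control replicate 1 (0.93) or CS + LPS replicate 2 (0.997). Fcer1a (1.36) and Tpsab1 (-1.22) were not called without Control replicate 2, and Tpsab1 (-0.67) was not called without CS + LPS replicate 3. Cpa3 was not called when any 1 of the 6 NaHS and PPG arrays was left out, at an unchanged difference. On the slide of the 3 CS + LPS arrays and Control replicate 3, Mcpt1 was 2.72, Cpa3 3.20, Fcer1a 1.85 and Cma1 0.79 above that 1 control array, and Tpsab1 was -1.68. That slide holds 1 control array, the one that stood apart, so no call is drawn from it.

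With NaHS against control, no member was called by the 2 thresholds or by an adjusted p under 0.05 in limma (unadjusted p under 0.05 for 1 member, Hdc), while 2.67% and 0.0989% of probes were. Mcpt1 was 1.01 ± 0.68 above control (SE, adjusted p = 0.45), Cpa3 1.15 ± 0.73 (adjusted p = 0.423) and Fcer1a 0.51 ± 0.53 (adjusted p = 0.629). Tpsab1 was -1.11 ± 0.60 (adjusted p = 0.356), with the 3 NaHS values below the 3 controls. On the slide shared by the NaHS group and control replicates 1 and 2 it was -1.01 and was called, as it also was without Control replicate 1 (-1.47) or CS + LPS replicate 3. Cpa3 was called without Control replicate 2, and Mcpt1 without CS + LPS replicate 1. Hdc was -0.60 ± 0.27 (adjusted p = 0.289) and Cma1 0.26 ± 0.19 (adjusted p = 0.478). Without Control replicate 3 the differences were 0.58 for Mcpt1, 0.39 for Cpa3, 0.22 for Fcer1a, 0.38 for Cma1 and -0.21 for Hdc, none of them called.

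With PPG against control, Cma1 was called and 4.38% of probes were. It rose by 1.09 ± 0.19 on the log2 scale (SE, adjusted p = 0.0215), and 4.64% of probes passed an adjusted p of 0.05 in this comparison. On the slide that held both groups the difference was 1.22, with control replicates 1 and 2 only (adjusted p = 0.0188). Without Control replicate 1 or PPG replicate 2 it was 0.98 or 0.997, just under a 2-fold difference, and was not called. The other 8 members were not called. Mcpt1 was -0.14 ± 0.68 from control, with overlapping groups.

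NaHS and PPG were then set against CS + LPS, the comparisons that ask what a hydrogen sulfide donor and a CTH inhibitor did on top of the model. No member was called with NaHS, while 1.7% of probes were, and none had an adjusted p under 0.05, as 0.593% did (limma). Cma1 was -0.78 ± 0.19 on the log2 scale (SE, fold of 1.72, unadjusted p = 0.0017, adjusted p = 0.115), and the 3 NaHS values lay below the 3 CS + LPS values. Mcpt1 was -0.86 ± 0.68, and 0.030 without CS + LPS replicate 1. Without CS + LPS replicate 3, 1 member was called, Fcer1a. The NaHS and CS + LPS groups lay on different slides. With slide as a block, which only Control replicate 3 ties to the other slide's controls, Cma1 was -0.41 ± 0.31 and Mcpt1 -2.13 ± 1.18.

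The fall of Mcpt1 with PPG against CS + LPS chose these genes, so the values of this comparison describe them and nothing is read from them. Mcpt1 was -2.01 ± 0.68 from CS + LPS on the log2 scale (SE, n = 3 each), Fcer1a -1.27 ± 0.53, Cpa3 -1.12 ± 0.73, Tpsb2 -0.68 ± 0.57 and Ms4a2 -0.60 ± 0.51. Kit was -0.045 ± 0.20, Hdc -0.035 ± 0.27 and Cma1 0.055 ± 0.19, and Tpsab1 was 1.02 ± 0.60 higher. Mcpt1 and Fcer1a passed the 2 thresholds, which 2.05% of probes did, and these 2 genes also had all PPG values below all CS + LPS values, as 8.41% of probes had. On its other probe, with 10 spots per array, Fcer1a was -1.23 ± 0.58 and did not pass the 2 thresholds. No member had an adjusted p under 0.05, which 0.523% of probes had. The median over the 9 genes was -0.60, against 0.016 over all detected probes. Without CS + LPS replicate 1 the values were -1.12 for Mcpt1, -0.53 for Fcer1a, -0.32 for Cpa3, -0.035 for Tpsb2 and 0.055 for Ms4a2, and Tpsab1 was 1.53 higher. The PPG and CS + LPS groups also lay on different slides. With slide as a block the values were -3.28 ± 1.18 for Mcpt1, -3.42 ± 1.05 for Cpa3, -2.15 ± 0.95 for Fcer1a, -1.88 ± 0.96 for Tpsb2, -0.64 ± 0.95 for Ms4a2 and -0.48 ± 0.31 for Kit. Hdc was then 1.16 ± 0.21, with its sign turned, Cma1 0.42 ± 0.31 and Tpsab1 1.32 ± 1.12. Slide and group cannot be told apart here beyond that 1 control array.

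PPG and NaHS arrays lay on the same slide, and their difference uses no CS + LPS array, although those arrays enter the shared estimate of spread and the PPG arrays are among those that chose Mcpt1. No member was called in limma by the 2 thresholds or by an adjusted p under 0.05 (unadjusted p under 0.05 for Cma1), against 0.523% and 0% of probes. Mcpt1 was -1.15 ± 0.68 from NaHS (SE), with no overlap of the groups. Cma1 was 0.83 ± 0.19 higher with PPG (fold of 1.78, unadjusted p = 0.00105, adjusted p = 0.563 from limma), again with no overlap. Tpsb2 was -0.82 ± 0.57 (adjusted p = 0.689) and Hdc 0.40 ± 0.27 (adjusted p = 0.687), each with no overlap. Groups without overlap in either direction were thus found for 4 of the 9 members and for 25.2% of probes. The PPG arrays helped to choose Mcpt1, so of these 4 only Cma1, Tpsb2 and Hdc are read against that share. Cpa3 was -0.61 ± 0.73 and Fcer1a -0.52 ± 0.53 (adjusted p = 0.84 and 0.806), with overlapping groups.

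**Figure D2:**
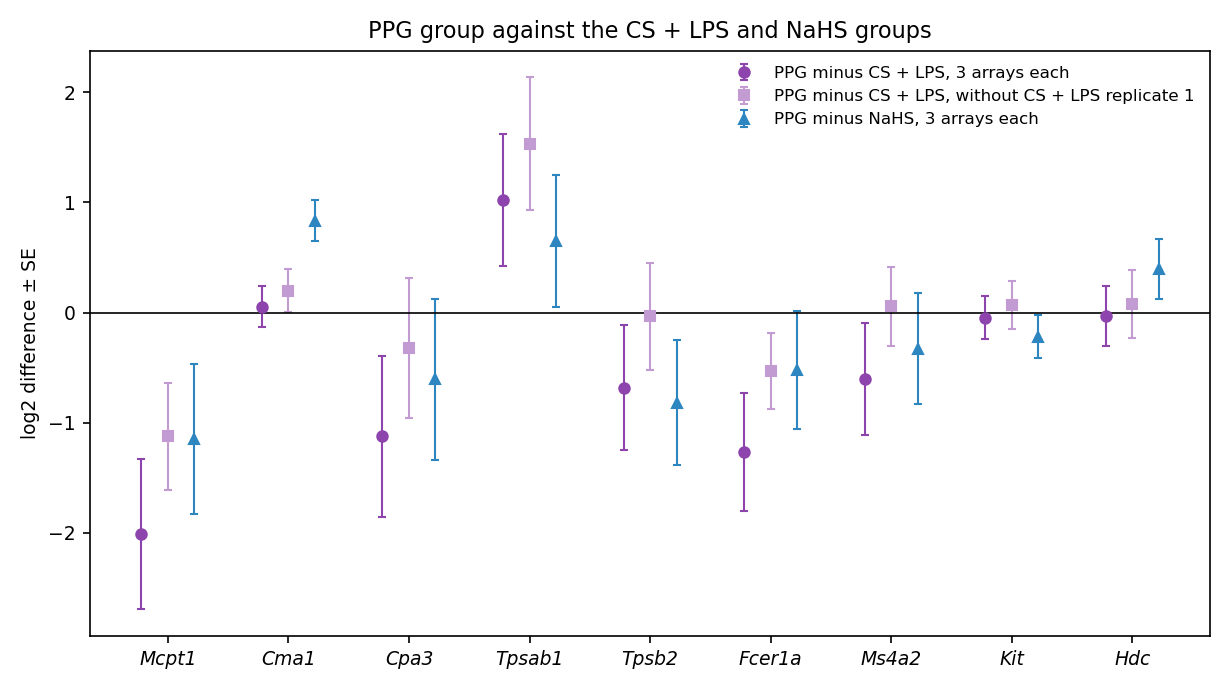
Log2 difference ± SE (y axis) of the PPG group from the CS + LPS group, from that group without its replicate 1, and from the NaHS group, for each of the 9 genes (x axis). Mcpt1 moves from -2.01 to -1.12 without CS + LPS replicate 1, Cma1 stays near 0 against CS + LPS and is 0.83 above NaHS, and Tpsab1 points upward.

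Levels of other marker lists are set beside these results. Of the 12 basophil and eosinophil markers 11 had a probe (Mcpt8l3 had none) and 8 were detected (Prg3, Epx and Il5ra were not), and their summed log2 level lay at 13.24 to 13.45 on the control arrays and at 13.85 to 14.96 on the CS + LPS arrays, where replicate 1 was highest. On the NaHS arrays it lay at 13.24 to 13.88 and on the PPG arrays at 13.35 to 13.60. The list includes Mcpt8 and Mcpt8l2, of the chymase cluster described next, and Mcpt8 alone gave 55.8% to 76.5% of the summed signal on each array. Without these 2 genes the other 6 lay at 11.13 to 11.74 in controls and at 11.78 to 12.55 with CS + LPS, while the NaHS arrays had 11.69 to 12.21 and the PPG arrays 11.77 to 11.81. In CS + LPS against control 1 of the 8 was called, Ccr3, a chemokine receptor of eosinophils (adjusted p = 0.104 in limma), while 4.56% of probes were. Ccr3 read only 3.36 to 4.68 on the control arrays. Ear1 was called lower with NaHS against CS + LPS (-2.60) and control (-2.27), and higher with PPG against NaHS (2.14). In those comparisons 1.7%, 2.67% and 0.523% of probes were called. Ccr3 and Ear1 were each well above background on only 8 of the 12 arrays. All 8 smooth muscle and vessel wall markers were detected, at 15.75 to 16.06 with PPG against 16.11 to 16.76 with CS + LPS, and the 6 detected of 8 fat markers (Plin1 had no probe and Lep was not detected) lay at 13.27 to 13.85 with PPG against 12.25 to 12.84 with CS + LPS. Control values of these lists were 16.17 to 16.68 and 11.92 to 13.92, and NaHS values 16.18 to 16.38 and 12.45 to 12.93. Of the 6 fat markers 4 were called higher with PPG against CS + LPS (Adipoq, Cidec, Thrsp and Car3), while 2.05% of probes were called. The median difference over the 6 was 1.99. Against NaHS 3 were called higher (Adipoq, Thrsp and Car3), while 0.523% of probes were called. Adipoq was well above background on only 6 arrays, and read 11.61 on Control replicate 3 and 7.91 to 10.64 with PPG. Of the smooth muscle and vessel wall markers only Eln passed the 2 thresholds in PPG against CS + LPS, as 2.05% of probes did. Eln lay at 11.26 to 11.99 with PPG and at 12.79 to 14.22 with CS + LPS. All 8 differences were below 0, with a median of -0.39, and the summed level without Eln was not examined. For the 7 detected of 8 heart muscle markers (all but Nppa) the PPG arrays lay at 15.43 to 16.19, the CS + LPS arrays at 13.72 to 15.76, the NaHS arrays at 13.42 to 15.86 and the controls at 12.79 to 16.56. Only Fabp3 of the 7 was called with PPG, higher against CS + LPS, control and NaHS. In these comparisons 2.05%, 4.38% and 0.523% of probes were called. The 3 detected of 6 mesothelium markers (the other 3 had no probe) lay at 14.15 to 14.83 in controls, above all 9 exposed arrays (13.44 to 14.02). The 3 detected of 7 cartilage markers lay at 7.88 to 8.40 in controls and 7.73 to 7.86 with CS + LPS, and the 6 detected of 7 markers of adventitial fibroblasts between 17.40 and 17.86 on all arrays. Gsn alone lay at 17.03 to 17.63, so this sum mostly follows Gsn. Dcn (1.49) and Lum (1.19) were called higher with PPG against control, where 4.38% of probes were called. Control replicate 3 was the lowest control for both, at 11.51 and 6.07, and these calls were not examined without it. Dpt (1.15) was called higher with NaHS against CS + LPS, where 1.7% were. The part of these markers in the results was not tested.

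The chymase genes lie in 1 cluster on chromosome 15, in the RefSeq order Cma1, Mcpt4, Mcpt3, Mcpt8l2, Mcpt8, Mcpt9, Mcpt1, Mcpt10, Ctsg and then granzymes, with further copies between them. Cma1 is at one end, and of the genes with a probe Mcpt9 and Mcpt10 lie nearest to Mcpt1. Of 21 other genes listed for this cluster 11 had a probe and 7 were detected. These were Mcpt1l4, Mcpt8, Mcpt8l2, Mcpt9, Mcpt10, Gzmb and Gzmc, and the probes of Mcpt3, Mcpt4, Ctsg and Gzmf were not detected. The reference table gives mcpt1l4 as an older name of Mcpt1l3, so the probe named Mcpt1l4 may read that gene, and the list of 21 holds both names. Copies of a chymase gene are nearly identical in places, and cross-hybridisation between their probes was not tested.

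The neighbours of Mcpt1 showed the same high array. Mcpt9 was 11.96, 11.99 and 11.35 in controls, 14.05, 12.67 and 12.45 with CS + LPS, 12.53, 12.33 and 11.85 with NaHS and 11.99, 11.92 and 12.16 with PPG. All CS + LPS values lay above all controls. Mcpt10 was 9.40, 9.43 and 8.58 in controls, 11.72, 10.19 and 9.70 with CS + LPS, 10.09, 9.75 and 9.31 with NaHS and 9.43, 9.17 and 9.66 with PPG, and Mcpt8 reached 14.56 on CS + LPS replicate 1 and lay between 12.40 and 13.54 on the other 11 arrays. In the CS + LPS against control comparison 3 of the 7 detected cluster genes were called, all higher, while 4.56% of probes were. Their signals followed that of Mcpt1 closely, as given below, so the count is not independent of the choice of Mcpt1. Mcpt10 rose by 1.40 ± 0.45 and Mcpt9 by 1.29 ± 0.37 (SE, adjusted p = 0.107 and 0.0856 in limma). Mcpt1l4 was well above background on only 1 of the 3 control arrays, and was 5.46-fold higher by measured means of 7.08 and 4.63 (adjusted p = 0.11). It counted as detected only through the CS + LPS and NaHS groups, so its call is not read against the 4.56% of probes. Mcpt8 was 0.96 ± 0.33 and Mcpt8l2 1.08 ± 0.50 above control (adjusted p = 0.123 and 0.203). The median over the 7 was 1.08, against -0.039 over all detected probes. Without CS + LPS replicate 1 the differences were 0.81 for Mcpt10, 0.79 for Mcpt9, 0.57 for Mcpt8 and 0.42 for Mcpt8l2, none of them called. Mcpt1l4 was still called then, and was not when Control replicate 3 was left out as well.

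With PPG against CS + LPS, where nothing is read from the values, 4 of the 7 cluster genes passed the 2 thresholds, all lower (Mcpt1l4, Mcpt8l2, Mcpt9 and Mcpt10), as 2.05% of probes did in either direction. Mcpt8l2 was -1.21 ± 0.50, Mcpt10 -1.12 ± 0.45, Mcpt9 -1.03 ± 0.37 and Mcpt8 -0.92 ± 0.33, and without CS + LPS replicate 1 the 4 values were -0.54, -0.52, -0.54 and -0.53. With slide as a block they were -1.59, -1.95, -1.65 and -1.33. Mcpt1l4, named from the authors' list, was not well above background on any PPG array and was so on 1 control array and on all CS + LPS and NaHS arrays. It thus counted as detected only through the CS + LPS and NaHS groups, and is not read against the share of probes. It was 7.34-fold lower with PPG than with CS + LPS by measured means of 4.20 and 7.08. The CS + LPS arrays read 9.05, 6.15 and 6.04. The probe's own signal on the PPG arrays was above the lowest signal well above background and was used as measured. Over the alternatives the log2 difference of Mcpt1l4 ranged from -4.50 to -1.09. Against NaHS it was 3.38-fold lower (unadjusted p = 0.0498, adjusted p = 0.571 in limma), and the log2 difference ranged from -2.30 to -0.45 over the alternatives. The call against NaHS was lost without Control replicate 2, NaHS replicate 1 or 2, or any of the PPG arrays.

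Over the 12 arrays, the 5 named genes outside the 10 with signals most like Mcpt1 were Mcpt1l4 (Pearson r = 0.991), Mcpt10 (0.954), Mcpt9 (0.949), Mcpt8l2 (0.943) and Bltp3b (0.935). On deviations from the group means they were Mcpt1l4 (0.991), Mcpt9 (0.974), Mcpt10 (0.964), Mcpt8 (0.956) and Fkbp5 (0.943), so the likeness was also present among arrays of 1 group. Among members, r with Mcpt1 was 0.979 for Fcer1a, 0.873 for Cpa3, 0.674 for Tpsb2 and 0.646 for Ms4a2. It was 0.265 for Kit, 0.216 for Cma1, -0.206 for Hdc and -0.251 for Tpsab1. These arrays share 2 slides and 1 array far above the rest. Leaving out CS + LPS replicate 1 and Control replicate 3, the 2 arrays farthest from the Mcpt1 median, r was 0.942 for Fcer1a, 0.605 for Cpa3, 0.377 for Tpsb2, 0.426 for Ms4a2 and -0.394 for Cma1. Correlations are descriptions of these 12 arrays, given with no test.

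**Figure D3:**
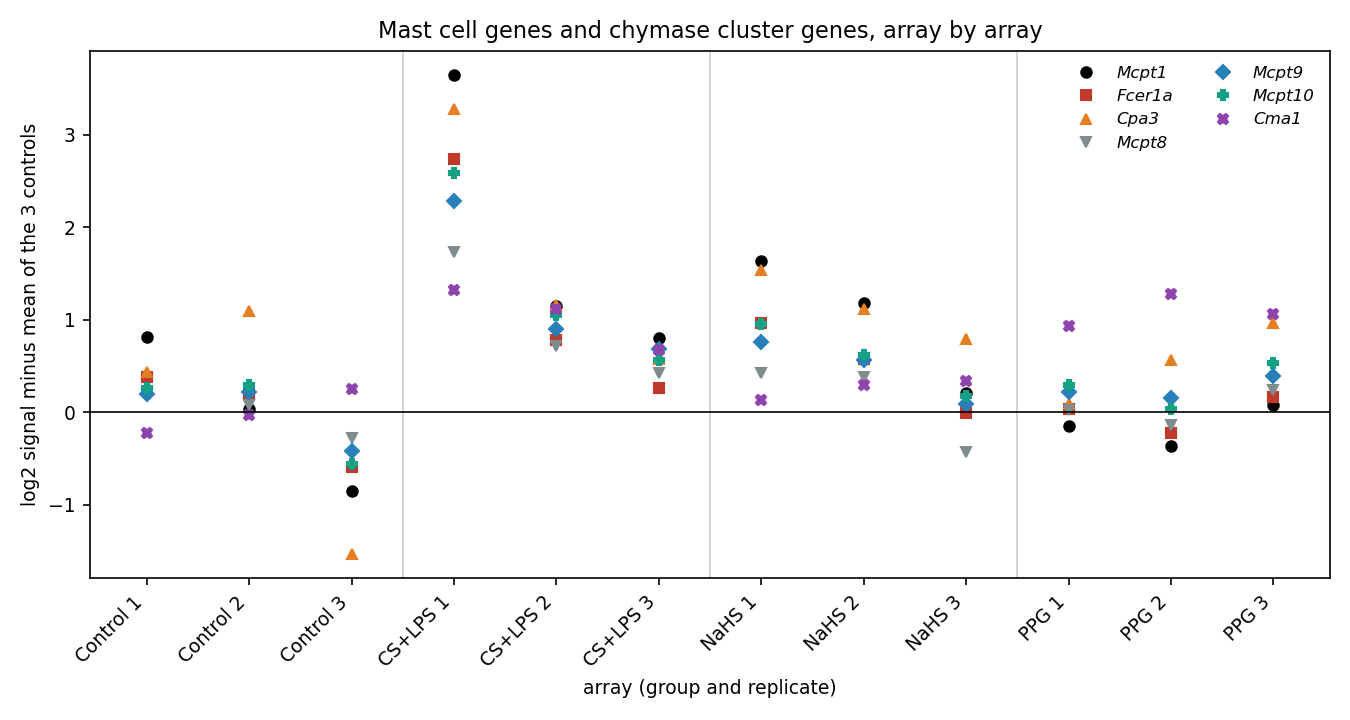
Scaled log2 signal minus the mean of the 3 controls (y axis) on each of the 12 arrays (x axis) for 4 members and 3 neighbours of Mcpt1 in the chymase cluster, with 1 marker per gene. Mcpt1, Fcer1a, Cpa3, Mcpt8, Mcpt9 and Mcpt10 are all highest on CS + LPS replicate 1, and Cma1 stands above the others on the 3 PPG arrays.

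Of 23 further genes listed for mast cells, 21 had a probe and 19 were detected. Whether the signal of each came from mast cells was not tested. In CS + LPS against control, where 4.56% of probes were called, 2 rose and 1 fell (Mrgprb4, by 1.13 on the log2 scale, adjusted p = 0.144 in limma), with a median difference of 0.38. Mrgprb4, a receptor of the Mas-related family, was -0.59 and not called without Control replicate 3, and was not called without CS + LPS replicate 2 or 3. Fcer1g, the gamma chain that the IgE receptor shares with Fc receptors of macrophages and neutrophils, was 13.29 to 14.75 in controls and 15.01 to 15.36 on all 9 exposed arrays. It rose by 1.16 ± 0.29 with CS + LPS (SE), 1.05 ± 0.29 with NaHS and 1.14 ± 0.29 with PPG against control (adjusted p = 0.0657, 0.15 and 0.0495 in limma). Without Control replicate 3 the differences were 0.75, 0.65 and 0.74 and none was called. Hpgds, the prostaglandin D synthase of mast cells, rose by 1.71 ± 0.46 with CS + LPS and 1.55 ± 0.46 with PPG (adjusted p = 0.0766 and 0.0704). Siglec8, an inhibitory lectin, passed the 2 thresholds with NaHS against control, where 2.67% of probes did. It counted as detected only through the NaHS group, so its call is not read against that share. It was not well above background on any control array, and was 3.82-fold higher with NaHS by measured means of 5.92 and 3.98 (adjusted p = 0.212 in limma). With control signals raised to at least the lowest signal well above background, their mean was 4.49 and the fold 2.69. Over the alternatives the log2 difference of Siglec8 ranged from 0.17 to 2.36. The call was lost without Control replicate 3 or NaHS replicate 3. In PPG against CS + LPS the same 19 genes had a median of 0.0054, with 10 above and 9 below 0. There Mrgprb4 passed the 2 thresholds, at 1.12 ± 0.43 with means of 6.54 and 5.42 and no overlap, and it was 2.73 with slide as a block.

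Gata2, a factor needed for mast cell development and also active in endothelium, had no fold of 2 and passed the adjusted threshold. It was 10.78, 10.60 and 10.33 in controls, 9.84, 9.65 and 9.63 with CS + LPS, 10.35, 10.38 and 10.45 with NaHS and 10.32, 9.90 and 9.84 with PPG. With CS + LPS it was -0.86 ± 0.16 from control (SE, adjusted p = 0.0312 in limma), in the opposite direction to the mast cell genes that rose. With NaHS it was 0.68 ± 0.16 above CS + LPS (adjusted p = 0.108), with no overlap. With slide as a block the latter was 0.33 ± 0.25. The CS + LPS difference missed the adjusted threshold without Control replicate 1 (-0.76, adjusted p = 0.0642) and without CS + LPS replicate 2 (adjusted p = 0.0716) or 3 (adjusted p = 0.118).

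The signalling genes behind the receptors were all measured. Of 17 genes of IgE receptor and KIT signalling, such as Lyn, Syk and Btk, none passed the 2 thresholds in any of the 6 comparisons, and their median difference was 0.31 with CS + LPS, 0.35 with NaHS and 0.25 with PPG against control. Btk, a kinase of the receptor's cascade, passed the adjusted threshold with PPG against control, as 4.64% of probes did, at 0.95 ± 0.24 (SE, fold of 1.93, adjusted p = 0.0476 in limma). It was 7.43 to 7.85 in controls and 8.53 to 8.76 with PPG, and with 1 array left out its adjusted p reached 0.137. Of 15 growth and alarm cytokines 11 had a probe and 5 were detected. With PPG against control, where 4.38% of probes were called, 1 of the 5 was, Tnf, at 1.03 ± 0.25 (adjusted p = 0.0472 in limma). Without Control replicate 3 or PPG replicate 1 or 3 it was under a 2-fold difference. The probes of Il3, Il5, Il9 and Il13 were not detected, and Tslp had no probe. Of 8 genes of histamine breakdown and receptors 5 were detected, and Aoc1, the diamine oxidase, rose against control in all 3 exposed groups, by 1.63, 1.11 and 1.48 with CS + LPS, NaHS and PPG (SE 0.36 each, adjusted p = 0.0494, 0.201 and 0.047 in limma). In these 3 comparisons 4.56%, 2.67% and 4.38% of probes were called. The NaHS call was lost without Control replicate 1 or 3 or NaHS replicate 1. No gene of these 3 lists passed the 2 thresholds between the exposed groups.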

How the data were processed

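Total RNA of lung was hybridised to Agilent rat arrays, 12 samples in 4 groups of 3. The deposited scanner files hold intensity per spot, which the authors made with Agilent Feature Extraction (version 10.7.3.1 per the file headers); Control replicates 1 and 2 and NaHS replicate 1 hold signals rounded to 3 significant digits. The probe flags per spot (outlier, saturated, well above background) come from the same files. The 5 deposited comparison lists hold the authors' fold changes, p-values and normalized signals, which were not used; they served only to name 194 probes. Outlier spots were dropped, processed signals were log2-transformed and averaged per probe, and arrays were aligned on their 75th percentile over probes, kept at its mean over the 12 arrays. Detected probes numbered 21239 of 30367. Each gene was read on its brightest probe. RefSeq (GRCr8) named 17514 probes by accession, and 12659 stayed unnamed; array coordinates (rn4) were not used.

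One limma fit (3.58.1, R 4.3.3) covered all 12 arrays and detected probes, with Benjamini-Hochberg adjustment over them, and was tested on simulated data. A call is a fold of at least 2 with an unadjusted two-sided p under 0.05. The named genes include all members, the 5 genes most like Mcpt1, and list genes called in a comparison (by fold and p or by adjusted p). Not every called gene of the marker lists is named. Members and lists were chosen with earlier results of these data known. The labels only number the replicates, while the paper describes the columns of its heat map as individual subjects, 3 per group. The p-values measure the spread between these samples, and the number of arrays limits the precision. Alternatives covered scaling, background correction, outliers, filters, slide, replicate block, the methods' t-test and leaving out each array; normexp used the median spot signal. Taking the percentile over spots, and leaving out CS + LPS replicate 1 with Control replicate 3, were added after seeing the data.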

Additional observations from a re-analysis of the deposited data

How the results depend on the processing

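The count of members called was 5 for CS + LPS against control, 0 for NaHS against control, 1 for PPG against control, 0 for NaHS against CS + LPS, 2 for PPG against CS + LPS and 0 for PPG against NaHS. For CS + LPS against control it was 3 with normexp background correction or with slide as a block. It was 1 on the 2 groups' arrays, with the methods' t-test or by adjusted p, 0 by the t-test's adjusted p, and 1 to 4 with 1 array left out. The slide that held both groups has 1 control array, so no count is given for that slide. Without CS + LPS replicate 1 and Control replicate 3 together, an alternative added after seeing the data, the count was 3. For NaHS against control it was 1 on the shared slide or on the 2 groups' arrays and 0 to 1 with 1 array left out. For PPG against control it was 0 with normexp or by the t-test's adjusted p, 2 on the shared slide or without the 2 arrays, and 0 to 1 with 1 array left out, being 0 without Control replicate 1 or PPG replicate 2. For NaHS against CS + LPS it was 1 with slide as a block and 0 to 1 with 1 array left out. For PPG against CS + LPS it was 4 with slide as a block, 1 on the 2 groups' arrays, 0 with the t-test or by either adjusted p, and 1 to 4 with 1 array left out. For PPG against NaHS it was 1 on the shared slide, on the 2 groups' arrays and without the 2 arrays, and 0 to 1 with 1 array left out. The Mcpt1 difference of PPG from control, -0.14, ranged from -0.57 to 0.27 with 1 array left out, and turned sign without Control replicate 1. That of NaHS from CS + LPS, -0.86, ranged from -1.39 to 0.030 with 1 array left out, was 0.030 both without CS + LPS replicate 1 and without the 2 arrays, and was -2.13 with slide as a block. The cause of these changes was not tested.

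Same-numbered arrays of different groups had correlated deviations of -0.31 to 0.14, so the numbers were not taken to pair the samples. With the replicate block, PPG against NaHS had 1 member called (Mcpt1) in place of 0, the other 5 comparisons had the same counts as without the block, and the adjusted p of Cma1 in PPG against control was 0.0561. Arrays of 3 per group on 2 slides limit all comparisons, and CS + LPS shares a slide with only 1 control array.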
